A study of Homo sapiens with 9 samples.

Results

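KLHL13 and ANKIB1 are genes of the ubiquitin system, and their read counts were followed through the 3 groups of an RNA-seq experiment on HK-2 cells, an immortalized line from the human proximal tubule. They are 2 of the 49 genes whose counts were analysed, and they were picked by name with earlier results of the same counts known. The counts of both genes in all 3 groups are therefore given as a description, without p-values. In the shJMJD1A-AGE group, HK-2 cells carried a lentiviral shRNA against JMJD1A (KDM3A, an H3K9 demethylase) and were cultured with advanced glycation end products (AGEs) at 400 μg/ml for 72 h. In the shCtrl-AGEs group the cells carried a control shRNA and received the same AGEs, and in the shCtrl-Normal group they carried the control shRNA and are titled as normal. The treatment text attached to the samples is identical for all 9 libraries, so the absence of AGEs in shCtrl-Normal rests on the sample titles. Each group had 3 libraries, and nothing says whether these came from separate cultures, so the spread between them may be technical. The study names 1 shRNA sequence against JMJD1A, so its effect cannot be told apart from effects of that sequence on other genes.

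Ubiquitin ligases attach ubiquitin to chosen proteins and so mark them for degradation or relocation. KLHL13 is a BTB-kelch protein that binds the scaffold cullin 3 and brings substrates to it. Together with KLHL9 it forms an adaptor through which cullin 3 ubiquitinates the kinase Aurora B in mitosis. ANKIB1 belongs to the RBR family, in which RING1 binds the ubiquitin-charged E2 enzyme and RING2 carries ubiquitin on a cysteine before passing it on, as in Parkin and ARIH1. It also has ankyrin repeats, which give the protein its name.

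KLHL13 (ENSG00000003096) lies on the minus strand of chromosome X of GRCh38, from 117897813 to 118117340, and ANKIB1 (ENSG00000001629) on the plus strand of chromosome 7, from 92245974 to 92401383 (GENCODE release 44). The canonical transcript of KLHL13 has 8 exons and 3342 bases, of which 1917 are coding. That of ANKIB1 has 20 exons and 6340 bases, of which 3267 are coding. KLHL13 has 7 protein-coding transcripts with 7 different starts, whereas ANKIB1 has 2 such transcripts. The deposited count sums all transcripts of a gene, so a shift between starts of KLHL13 could not be seen. No exon of KLHL13 overlaps another annotated gene. ANKIB1 overlaps KRIT1, on the other strand, over 193 bases at the start of both genes, and all 193 are exonic in both. The strand setting of the counting is not given in the sources used here, so reads from these 193 bases cannot be told apart.

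The sequences at the starts are shown because KLHL13 has starts of very different composition that its single count cannot separate, and because the ANKIB1 start is shared with KRIT1. The windows run from 250 bases before to 50 bases after each RefSeq start (GRCh38.p14), and both members were matched. GENCODE starts without a RefSeq window were not examined, among them the most upstream start of KLHL13, at 118117340. Both strands were searched for 4 motifs, and capitals mark the matches. The ETS-type core was searched as CCGGAA. The GC box, known from promoters without a TATA box, was searched as GGGCGG. The TATA box was searched as TATAAA. The core of the hypoxia response element was searched as ACGTG.
KLHL13 upstream start, chrX:118116761-118117060, minus strand: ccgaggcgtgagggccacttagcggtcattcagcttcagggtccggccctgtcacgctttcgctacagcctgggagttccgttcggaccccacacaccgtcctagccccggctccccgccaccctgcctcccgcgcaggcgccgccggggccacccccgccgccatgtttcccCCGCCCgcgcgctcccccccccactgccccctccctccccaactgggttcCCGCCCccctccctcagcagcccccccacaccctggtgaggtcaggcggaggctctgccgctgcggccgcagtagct
KLHL13 downstream start, chrX:117985280-117985579, minus strand: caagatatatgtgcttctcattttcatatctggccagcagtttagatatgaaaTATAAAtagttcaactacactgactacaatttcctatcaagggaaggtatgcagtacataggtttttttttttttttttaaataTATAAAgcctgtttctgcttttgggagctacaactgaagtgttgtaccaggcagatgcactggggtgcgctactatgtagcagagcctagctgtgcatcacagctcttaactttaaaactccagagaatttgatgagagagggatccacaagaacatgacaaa
ANKIB1 start, chr7:92245724-92246023, plus strand: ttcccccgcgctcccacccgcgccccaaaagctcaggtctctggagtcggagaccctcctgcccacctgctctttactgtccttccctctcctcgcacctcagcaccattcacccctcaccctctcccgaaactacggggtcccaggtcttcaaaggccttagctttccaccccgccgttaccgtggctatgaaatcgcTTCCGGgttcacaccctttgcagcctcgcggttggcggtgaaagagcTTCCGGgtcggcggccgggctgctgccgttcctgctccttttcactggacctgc
The upstream KLHL13 window held 27 CpG dinucleotides at 74.0% GC, and the downstream window, 131481 bases away, held 1 at 37.7% GC. The ANKIB1 window held 21 CpG dinucleotides at 63.0% GC. The upstream KLHL13 window had 2 GC boxes, a motif found in 45.0% of the 35116 promoter windows of the same length. The downstream KLHL13 window had 2 matches to the TATA box, found in 11.5% of all windows, beginning at −197 and −113 from the first transcribed base. The ANKIB1 window had 2 ETS-type matches, found in 17.2% of all windows, beginning 51 and 4 bases before the first transcribed base. Both lie in the 159 bases that the ANKIB1 window shares with a RefSeq window of KRIT1. ACGTG was in none of the 3 windows and in 21.4% of all windows. Each share counts windows with at least 1 match on either strand, and the share with 2 was not computed. A match is a run of letters and not a measured binding site.

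The 49 genes summed to between 67563 and 107036 reads per library, which is not the depth of the libraries. KDM3A was not analysed here, so the knockdown itself was not measured in these counts. None of the 14 markers listed for proximal tubule and epithelium was among the genes analysed, so the cell type could not be checked either. Of 6 blood cell markers, CD38 and FGR were present, at 3 reads each over all 9 libraries.

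KLHL13 was lowest in shJMJD1A-AGE cells, intermediate in shCtrl-AGEs cells and highest in shCtrl-Normal cells. It had 901, 700 and 844 reads in the shJMJD1A-AGE libraries, 1743, 1562 and 1755 in the shCtrl-AGEs libraries, and 2920, 2850 and 2821 in the shCtrl-Normal libraries. The groups did not overlap, in raw counts or after scaling. Among all genes tested, 26.1% were lower without overlap in shCtrl-AGEs against shCtrl-Normal, 28.9% in shJMJD1A-AGE against shCtrl-AGEs and 35.6% in shJMJD1A-AGE against shCtrl-Normal. After TMM scaling over the 9 libraries, the normalised read count of KLHL13 was 909 ± 86.6 in shJMJD1A-AGE, 1741 ± 103 in shCtrl-AGEs and 2527 ± 47.4 in shCtrl-Normal (SD, n = 3 each). The coefficient of variation was 9.52%, 5.93% and 1.88% in the same order, against 3.52%, 2.44% and 1.87% from counting error alone. For KLHL13 the shCtrl-Normal replicates therefore spread about as much as counting alone gives, and in both AGE groups they spread more.

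ANKIB1 followed the same order over a narrower range. It had 2316, 2248 and 2453 reads in the shJMJD1A-AGE libraries, 3191, 2829 and 2696 in the shCtrl-AGEs libraries, and 4067, 3868 and 3599 in the shCtrl-Normal libraries. Its normalised read count was 2617 ± 170 in shJMJD1A-AGE, 2994 ± 143 in shCtrl-AGEs and 3393 ± 210 in shCtrl-Normal (SD, n = 3 each). The coefficient of variation of ANKIB1 was 6.48%, 4.77% and 6.20% in the same order, against 2.07%, 1.86% and 1.61% from counting error alone. Unlike KLHL13, its replicates spread more than counting alone gives in shCtrl-Normal too. The groups lay close to each other, with highest values of 2799 in shJMJD1A-AGE against a lowest of 2850 in shCtrl-AGEs, and 3136 in shCtrl-AGEs against a lowest of 3155 in shCtrl-Normal. These gaps are smaller than the SD of any group. Libraries were also scaled by their plain totals over the 49 genes analysed, a check of overlap chosen after the data were seen. ANKIB1 then ran from 2564 to 3020 in shJMJD1A-AGE and from 2849 to 2948 in shCtrl-AGEs. These neighbours in the order were then no longer separate. KLHL13 kept all 3 groups apart under TMM, DESeq2 size factors and plain totals. All 3 scalings rest on the same genes analysed and none on library depth, so they are not independent checks. Of the genes tested, 32.6% to 42.2% were called in the 3 comparisons, so the basis of the scaling itself changed in part.

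**Figure D1:**
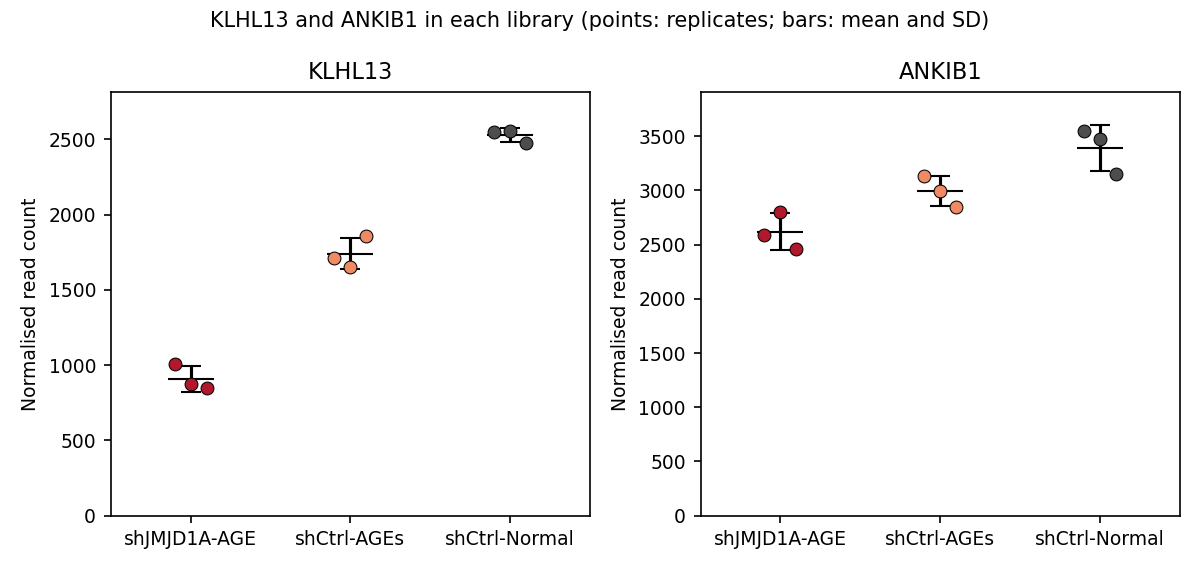
Normalised read counts (y axis, TMM scaling over 9 libraries) of KLHL13 and ANKIB1 in the 3 groups, with points for the 3 libraries and bars for mean and SD. KLHL13 separates into 3 steps with means of 909, 1741 and 2527, while the ANKIB1 groups almost touch.

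The comparison of shCtrl-AGEs with shCtrl-Normal asks what AGEs alone do. KLHL13 in shCtrl-AGEs was at 68.9% of its shCtrl-Normal mean, with a log2 fold change of −0.50 (standard error 0.0598). ANKIB1 was at 88.2%, with a log2 fold change of −0.15 (standard error 0.0649). The median over the 46 genes tested was −0.01, and KLHL13 ranked 3 and ANKIB1 12 from the lowest. In edgeR's quasi-likelihood fit over all genes, with Benjamini-Hochberg adjustment, KLHL13 was below the threshold of 0.05 and ANKIB1 was not, so 1 of the 2 members was called, beside 32.6% of all genes tested in either direction and 13.0% in the lower direction. Because both were chosen with the contrasts known, nothing is read from that share, nor from the calls of the members in the other comparisons. ANKIB1 was called in 4 of 13 alternative settings.

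The comparison of shJMJD1A-AGE with shCtrl-AGEs asks what silencing of JMJD1A does under AGEs. KLHL13 in shJMJD1A-AGE was at 52.2% of its shCtrl-AGEs mean, with a log2 fold change of −0.97 (standard error 0.0902). With a fold of at least 2 required as well, neither member was called, beside 8.89% of all genes tested. ANKIB1 was at 87.4%, with a log2 fold change of −0.22 (standard error 0.085). Among 45 genes tested, with a median of 0.04, KLHL13 ranked 3 and ANKIB1 12 from the lowest. Again KLHL13 and not ANKIB1 was called, beside 42.2% of all genes tested in either direction and 22.2% in the lower direction, and ANKIB1 was called in 4 of 13 alternative settings. With plain totals, which moved the median of all genes by 0.15, the log2 fold change of ANKIB1 was −0.07 (standard error 0.0889) and that of KLHL13 −0.82 (standard error 0.0898).

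Both comparisons use the same 3 shCtrl-AGEs libraries, so their values are not independent of each other. Set side by side, the log2 fold change of KLHL13 was −0.50 for AGEs and −0.97 for silencing, and that of ANKIB1 was −0.15 and −0.22. Each member was lower at both steps in its fitted value, and the step of KLHL13 was the larger in each. For shJMJD1A-AGE against shCtrl-Normal, which differ in both the shRNA and the AGEs, KLHL13 was at 36.0% with a log2 fold change of −1.45 (standard error 0.085), and ANKIB1 at 77.1% with −0.35 (standard error 0.0833). Both members were called here, beside 40.0% of the 45 genes tested in either direction and 22.2% in the lower direction. With the fold of at least 2 required as well, KLHL13 was called and ANKIB1 was not, beside 13.3% of all genes tested. From the lowest, KLHL13 ranked 2 and ANKIB1 10.

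**Figure D2:**
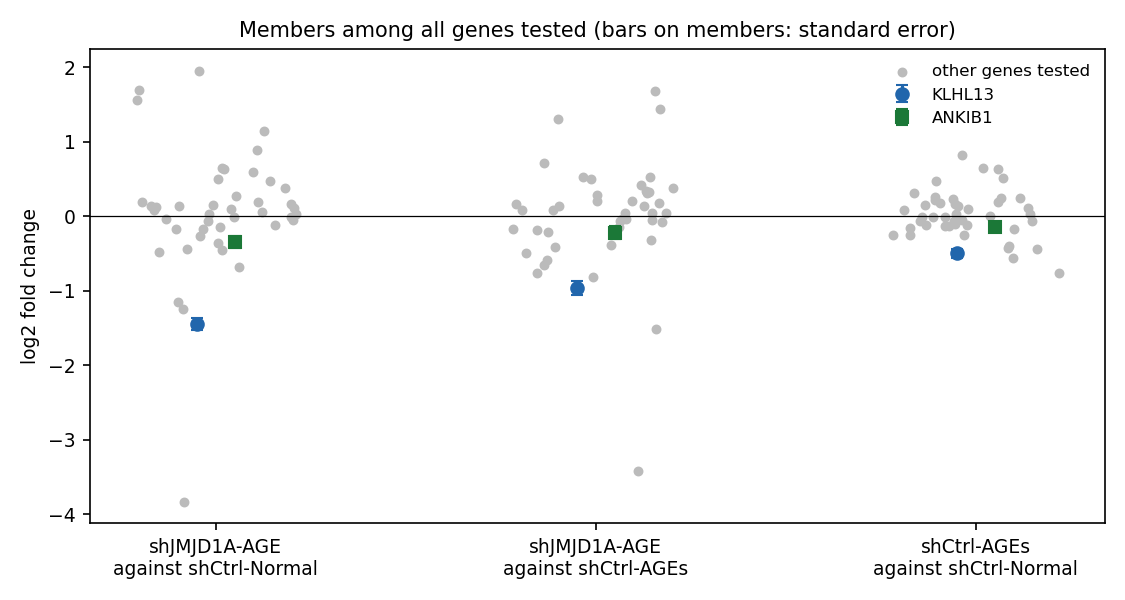
log2 fold changes (y axis, edgeR) in the 3 comparisons (x axis), with KLHL13 and ANKIB1 and their standard errors in colour and the other genes tested as grey points. KLHL13 lies near the lower end in each comparison, at −1.45, −0.97 and −0.50, and ANKIB1 lies below 0 by less, at −0.35, −0.22 and −0.15.

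A ratio of 2 genes within a library needs no scaling between libraries. KLHL13 had 0.389, 0.311 and 0.344 reads per read of ANKIB1 in the shJMJD1A-AGE libraries, 0.546, 0.552 and 0.651 in the shCtrl-AGEs libraries, and 0.718, 0.737 and 0.784 in the shCtrl-Normal libraries. The groups did not overlap, so KLHL13 was lower relative to ANKIB1 at each step. How many other pairs of genes separate in this way was not computed. On the log2 scale the ratio in shCtrl-AGEs differed from shCtrl-Normal by −0.36 (standard error 0.0901). In shJMJD1A-AGE it differed from shCtrl-AGEs by −0.75 (standard error 0.124). The inequality between the members therefore did not depend on the scaling, while the size of each member's own difference does. Relative to MAD1L1, a gene described below, KLHL13 also separated without overlap, by −0.49 (standard error 0.125) and −1.10 (standard error 0.224) in the same comparisons. ANKIB1 relative to MAD1L1 differed by −0.13 (standard error 0.106), with overlap, in shCtrl-AGEs against shCtrl-Normal. In shJMJD1A-AGE against shCtrl-AGEs it differed by −0.36 (standard error 0.175), without overlap.

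**Figure D3:**
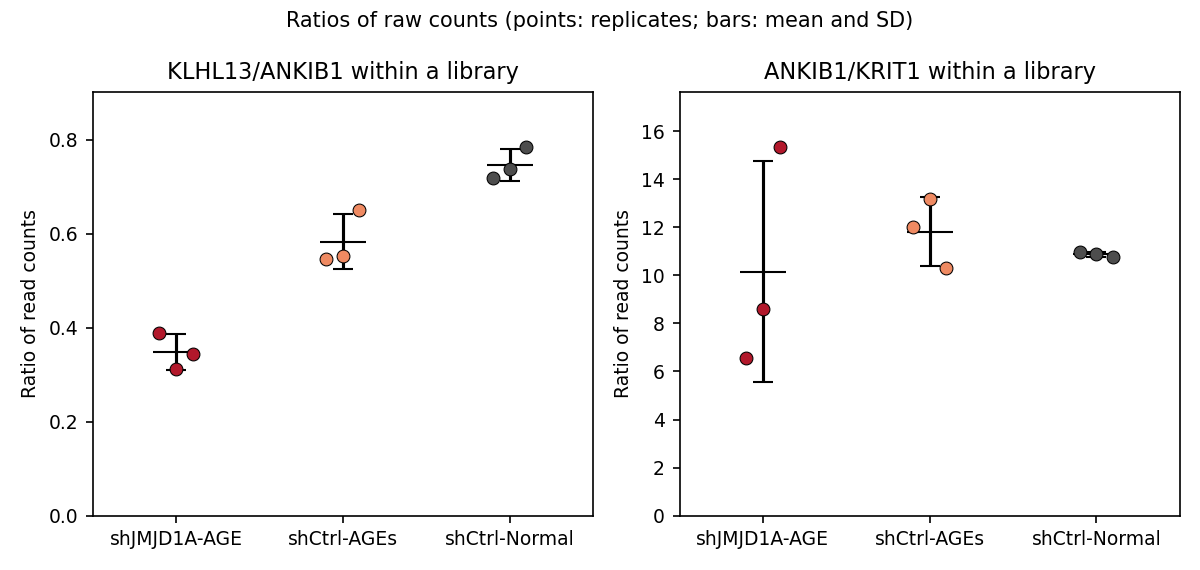
Ratios of raw read counts within each library (y axis) for KLHL13 over ANKIB1 and for ANKIB1 over KRIT1, with points for the 3 libraries of each group and bars for mean and SD. The KLHL13 to ANKIB1 ratio averages 0.348, 0.583 and 0.746 from left to right with no overlap, and the ANKIB1 to KRIT1 ratio overlaps between all groups.

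Which member had the higher level depended on the length used. Per kb of the canonical transcript, the normalised read count of KLHL13 was 272 ± 25.9 in shJMJD1A-AGE, 521 ± 30.9 in shCtrl-AGEs and 756 ± 14.2 in shCtrl-Normal (SD, n = 3 each). That of ANKIB1 was 413 ± 26.7, 472 ± 22.5 and 535 ± 33.2 in the same order. On this scale KLHL13 was the higher of both in shCtrl-Normal and the lower in shJMJD1A-AGE. Per kb of all annotated exons, 6928 bases in KLHL13 and 7389 in ANKIB1, KLHL13 was at 131 ± 12.5, 251 ± 14.9 and 365 ± 6.84, below ANKIB1 at 354 ± 22.9, 405 ± 19.3 and 459 ± 28.5 in each group. The transcripts that HK-2 cells use were not measured by gene counts, so neither length was preferred.

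**Figure D4:**
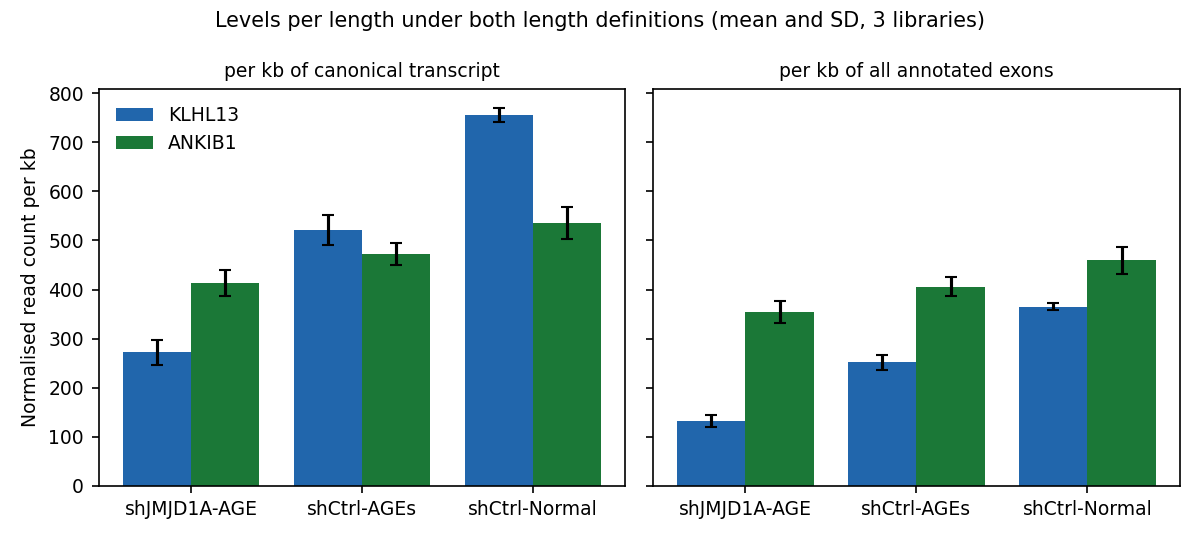
Normalised read counts per kb (y axis, bars: mean, error bars: SD of 3 libraries) of KLHL13 and ANKIB1 in the 3 groups, by canonical transcript length and by the length of all annotated exons. By the canonical length the members change places between shJMJD1A-AGE and shCtrl-Normal, and by all exons ANKIB1 is higher throughout.

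KRIT1, whose product binds RAP1 at cell junctions, begins head to head with ANKIB1. It had 353, 262 and 160 reads in the shJMJD1A-AGE libraries, 266, 215 and 262 in the shCtrl-AGEs libraries, and 371, 355 and 334 in the shCtrl-Normal libraries. Its normalised read count was 294 ± 120 in shJMJD1A-AGE, 255 ± 25.2 in shCtrl-AGEs and 312 ± 16.7 in shCtrl-Normal (SD, n = 3 each). In shCtrl-AGEs it was at 81.9% of its shCtrl-Normal mean without overlap, with a log2 fold change of −0.25 (standard error 0.110) that did not pass. In shJMJD1A-AGE it was at 115% of its shCtrl-AGEs mean with overlap, with a log2 fold change of 0.17 (standard error 0.333) that did not pass either. The spread in shJMJD1A-AGE was wide, with a coefficient of variation of 41.0%, whereas it was 6.48% for ANKIB1 in the same libraries. The ANKIB1 to KRIT1 ratio was 6.56, 8.58 and 15.3 in shJMJD1A-AGE, 12.0, 13.2 and 10.3 in shCtrl-AGEs, and 11.0, 10.9 and 10.8 in shCtrl-Normal. It was nearly constant in shCtrl-Normal and varied most in shJMJD1A-AGE, and the groups overlapped. On the log2 scale it differed between shJMJD1A-AGE and shCtrl-AGEs by −0.30 (standard error 0.376), an error larger than the difference. KRIT1 also shares exons with protein-coding genes on its own strand, so its count is less certain than that of ANKIB1.

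Of 82 genes in 6 lists of the ubiquitin system and of mitosis, 4 were among the genes analysed, the members themselves, HECW1 and MAD1L1. HECW1 is a HECT-type ubiquitin ligase known from neurons. It had 3, 1 and 1 reads in the shJMJD1A-AGE libraries, 5, 2 and 12 in the shCtrl-AGEs libraries, and 23, 12 and 4 in the shCtrl-Normal libraries, and it was too low to be tested in either comparison of shJMJD1A-AGE. In shCtrl-AGEs against shCtrl-Normal its log2 fold change was −0.76 (standard error 0.672) and it did not pass. MAD1L1, a spindle checkpoint protein, had 1329, 1333 and 1954 reads in the shJMJD1A-AGE libraries, 1453, 1597 and 1351 in the shCtrl-AGEs libraries, and 1824, 1702 and 1793 in the shCtrl-Normal libraries. Its log2 fold change was −0.01 (standard error 0.0631) for shCtrl-AGEs against shCtrl-Normal and 0.14 (standard error 0.106) for shJMJD1A-AGE against shCtrl-AGEs, and it passed in neither. Of the 4 genes, HECW1 and MAD1L1 were called in none of the comparisons in which they were tested. Cullin 3, KLHL9, Aurora B and the E2 enzymes were not analysed here.

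The genes most like each member were found by the root mean square difference of centred log2 normalised read counts over the 9 libraries, among 44 other genes. For KLHL13, which itself varied by 0.62 about its mean, these were PLXND1 at 0.34, CYP51A1 at 0.38 and DBNDD1 at 0.44. PLXND1, a semaphorin receptor, averaged 7730 ± 463 in shJMJD1A-AGE, 11362 ± 878 in shCtrl-AGEs and 12692 ± 771 in shCtrl-Normal. These means had the order of KLHL13. In raw counts the PLXND1 groups did not overlap either, at 6571, 6099 and 8213, then 12584, 10141 and 10383, then 15529, 13473 and 14163. After TMM scaling its highest shCtrl-AGEs value, 12367, lay above its lowest shCtrl-Normal value, 12097. CYP51A1, an enzyme of cholesterol synthesis, averaged 180 ± 64.0, 506 ± 34.0 and 438 ± 26.5 in the same order, and DBNDD1 644 ± 72.1, 1109 ± 15.4 and 915 ± 48.6 (SD, n = 3 each). CYP51A1 and DBNDD1 shared with KLHL13 the low level in shJMJD1A-AGE but were higher in shCtrl-AGEs than in shCtrl-Normal. For ANKIB1, which varied by 0.17 about its mean, the nearest were NFYA at 0.10, TSPAN6 at 0.11 and FUCA2 at 0.12. NFYA, a subunit of the CCAAT-binding factor, averaged 1276 ± 4.39 in shJMJD1A-AGE, 1281 ± 73.6 in shCtrl-AGEs and 1564 ± 45.7 in shCtrl-Normal (SD, n = 3 each). TSPAN6, a tetraspanin, averaged 1431 ± 86.2, 1866 ± 92.5 and 1875 ± 40.6, and FUCA2, a fucosidase, 3424 ± 237, 3834 ± 206 and 3953 ± 222 in the same order. ANKIB1 was 8 in order for KLHL13 at 0.47, and KLHL13 was 34 for ANKIB1, so neither member was nearest to the other. This measure favours genes of similar range and says nothing of shared control.

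**Figure D5:**
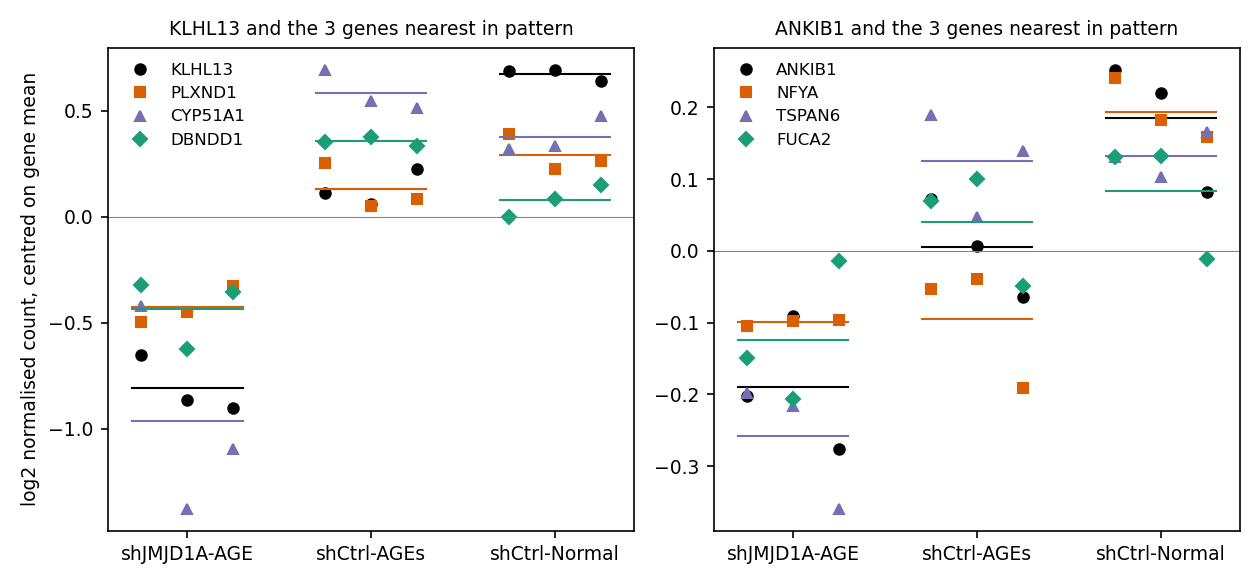
Centred log2 normalised read counts (y axis) of KLHL13 and ANKIB1 with the 3 genes nearest to each, by group (x axis), with 1 point for each library and a line at each group mean. In the left panel KLHL13 steps up from group to group without overlap. PLXND1 has the same order of means but overlaps between shCtrl-AGEs and shCtrl-Normal after TMM scaling, though not in raw counts. CYP51A1 and DBNDD1 are highest in shCtrl-AGEs, and the right panel spans a narrower range.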

How the data were processed

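RNA was sequenced from 9 HK-2 libraries, 3 in each of the shJMJD1A-AGE, shCtrl-AGEs and shCtrl-Normal groups, which were taken from the sample titles. The authors trimmed the reads, aligned them to GRCh38 using HISAT2 2.1.0 and deposited raw read counts per gene from featureCounts. The counts of 49 genes were used as deposited, and all were matched to GENCODE symbols. No pair of libraries was identical.

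Each comparison was fitted to the 6 libraries concerned with edgeR 4.0.16 in R 4.3.3. Genes were filtered by filterByExpr (count 10, total 15) and scaled by TMM, and the robust quasi-likelihood test was adjusted by Benjamini-Hochberg over all genes tested, with a threshold of 0.05. Both members passed the filter in all 3 comparisons. A standard error was derived as the fitted value over the root of its F statistic. Normalised read counts used TMM over all 9 libraries, so their ratios can differ from a fitted fold change. The counting error of a group is the mean of 1 over the root of each raw count.

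The genes named were the members, the genes of 6 lists, a gene overlapping a member, and for each member the 3 nearest in pattern among genes with a mean count of at least 10. Members and lists were chosen with earlier results of these data known. The fits of shCtrl-AGEs against shCtrl-Normal and of shJMJD1A-AGE against shCtrl-AGEs were tested on simulated data. That of shJMJD1A-AGE against shCtrl-Normal was not. As many genes were raised as lowered in the simulated data, so they cannot show how unbalanced changes affect the scaling. Alternatives were other scalings, DESeq2 1.42.0, other filters, all libraries in one fit, a replicate block, a fold threshold, a pseudocount of 1 for the ratio and leaving out each library.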

Additional observations from a re-analysis of the deposited data

How the results depend on the processing

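The log2 fold changes of KLHL13 and ANKIB1 gave 78 values over the alternatives, all below 0, of which 74 moved by less than the SD between replicates. Plain totals gave KLHL13 −0.56 in shCtrl-AGEs against shCtrl-Normal and −0.82 in shJMJD1A-AGE against shCtrl-AGEs, and gave ANKIB1 −0.074 in shJMJD1A-AGE against shCtrl-AGEs. Plain totals moved the median of all genes by −0.06 in shCtrl-AGEs against shCtrl-Normal and by 0.15 in shJMJD1A-AGE against shCtrl-AGEs. They gave 6 higher and 11 lower genes in shCtrl-AGEs against shCtrl-Normal, in place of 9 and 6, and 13 higher and 8 lower in shJMJD1A-AGE against shCtrl-AGEs, in place of 9 and 10. Leaving out 1 library gave KLHL13 −0.57 to −0.47 in shCtrl-AGEs against shCtrl-Normal, the lowest without shCtrl-AGEs replicate 3, and −1.02 to −0.91 in shJMJD1A-AGE against shCtrl-AGEs. KLHL13 passed in 13 of 13 alternatives in each comparison, a count that leaves out the fold threshold. The alternatives reuse the same libraries, and the members were chosen with these contrasts known. Their passes are therefore a description and no support. ANKIB1 passed in 13 of 13 for shJMJD1A-AGE against shCtrl-Normal and in 4 of 13 in each other comparison. In shCtrl-AGEs against shCtrl-Normal these were plain totals (log2 fold change −0.21), DESeq2's Wald test (−0.16), no filter on low counts (−0.16) and leaving out shCtrl-Normal replicate 3 (−0.19). In shJMJD1A-AGE against shCtrl-AGEs they were DESeq2's Wald test (−0.20), all 9 libraries in one fit (−0.19) and leaving out shJMJD1A-AGE replicate 2 (−0.26) or replicate 3 (−0.18). Requiring a fold of at least 2 left 0 of 15 genes in shCtrl-AGEs against shCtrl-Normal, where no gene tested by edgeR reached that fold and DESeq2's Wald test without it called 16, 4 of 19 in shJMJD1A-AGE against shCtrl-AGEs and 6 of 18 in shJMJD1A-AGE against shCtrl-Normal. The libraries share only a replicate number, and same-numbered libraries correlated between −0.43 and 0.31 in their deviations, with 1 library of 3 best with its own number in each comparison. With the replicate block, 16, 19 and 19 genes passed in these 3 comparisons, the log2 fold change of KLHL13 was −0.50, −0.97 and −1.45, and that of ANKIB1 −0.14, −0.22 and −0.35. The log2 ratio of KLHL13 to ANKIB1 moved by less than its spread in all alternatives run.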
